A study of Mus musculus with 8 samples.

Results

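The genes described here are 41 enzymes, regulators and carriers of glycolysis, lactate handling and glycogen metabolism, taken by name from the probe annotation of the array. All 41 were measured, among 22278 genes tested. They were followed in soleus, a postural hindlimb muscle rich in slow, oxidative fibres, of male C57BL/6J mice aged 14 weeks. Every mouse, controls included, ate High-fat diet 32, and the mice were 8 weeks old at the start. Over 6 weeks, the mice of 4 samples were given cells of Porphyromonas gingivalis, an oral bacterium of periodontal disease, in 100 µl of saline through a feeding needle. The mice of the other 4 samples were given saline without bacteria. Total RNA (200 ng) was labelled with Cy3 and hybridised to 1 Agilent array per sample. The labels do not state that each array is a separate mouse, so every p-value here measures the spread between these samples. In whole muscle, fewer cells of a type and less RNA per cell cannot be told apart.

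Glycolysis splits glucose 6-phosphate into pyruvate, which lactate dehydrogenase exchanges with lactate, and monocarboxylate carriers move that lactate across membranes. Glycogen is the store that feeds this route in muscle: glycogen synthase builds it, phosphorylase releases glucose 1-phosphate from it, and phosphatase targeting subunits hold the controlling phosphatase on the particle. Fast fibres rely on this route for bursts of work, while slow fibres take up and burn lactate.

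Values are log2 signal relative to the array's 75th percentile, and a difference is the P. gingivalis mean minus the saline mean on that log2 scale. Levels of different genes come from different probes and are not set against each other. Groups follow the sample records. In the authors' deposited table each of 8 columns matched best the array of the opposite group with the same number (correlation 0.906 to 0.958, against -0.37 to -0.06 with the array of its own name). Every direction given here would turn if the names in that table were right and the sample records wrong. The arrays shared 1 slide and 1 scan, but each group sat on its own side of the slide, and an effect of side cannot be told apart from one of treatment. The 75th percentile ranged from 648.2 (P. gingivalis array 2, whose extraction status asked for evaluation) to 763.9, and no spot was saturated. Probes well above background numbered 30210 to 34111 on the saline arrays and 34857 to 35400 on the P. gingivalis arrays. Myh7, the myosin of slow fibres, read 9.22 ± 0.07 (SD, n = 4) on the saline arrays.

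None of the 41 members passed an adjusted p of 0.05 in the limma fit, in which 26 of all genes did (0.117%), 8 of them higher (0.0359%) and 18 lower (0.0808%). At an adjusted p of 0.10 the members' count was also 0, beside 3.26% of all genes. The smallest adjusted p among members was 0.111, for Ppp1r3a. At an unadjusted p under 0.05 there were 7 members (17.1%), 6 higher and 1 lower, beside 19.7% of all genes (10% higher and 9.67% lower). The 4 P. gingivalis arrays lay wholly above the 4 saline arrays for 4 members (Ppp1r3a, Pfkfb1, Gapdh and Pkm), which is 9.76% of members, and in no member wholly below. Over all genes 13.4% did not overlap, 7.34% with P. gingivalis above and 6.1% with it below. Both total shares of members are below those of all genes, and the members that make them up are mostly higher. The sign was positive for 27 members (65.9%) and negative for 14, against 47.7% positive over all genes. The median difference was 0.04 over the members (quartiles -0.04 and 0.15) and -0.01 over all genes (quartiles -0.14 and 0.11).

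The differences were small. They ran from -0.24 (Pfkp) to 0.50 (Pfkfb1), and the 95% interval of the limma fit lay within a doubling or halving for all 41 members and within 1.5 times either way for 35. The spread between arrays of a group was smallest for Gbe1, the glycogen branching enzyme (pooled SD 0.04), and largest for Slc16a3, a lactate exporter (pooled SD 0.52). The median over members was 0.11, beside 0.14 over all genes. Centring the arrays on their median in place of the 75th percentile shifted the median of all genes from -0.01 to 0.14, and the members' median moved with it, to 0.19, with 40 of 41 positive (97.6%, beside 75.7% of all genes). Under that scaling 2385 genes passed, 2289 of them higher, and 6 members did (Pfkm, Gapdh, Pkm, Fbp2, Pygm and Ppp1r3a), which is 14.6% of members beside 10.7% of all genes. At an unadjusted p under 0.05 there were 19 members under it (46.3%), beside 32.6% of all genes. Quantile normalization gave 24 positive members (58.5%, beside 53.6% of all genes) and 0 past the threshold, which 210 of all genes passed.

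**Figure D1:**
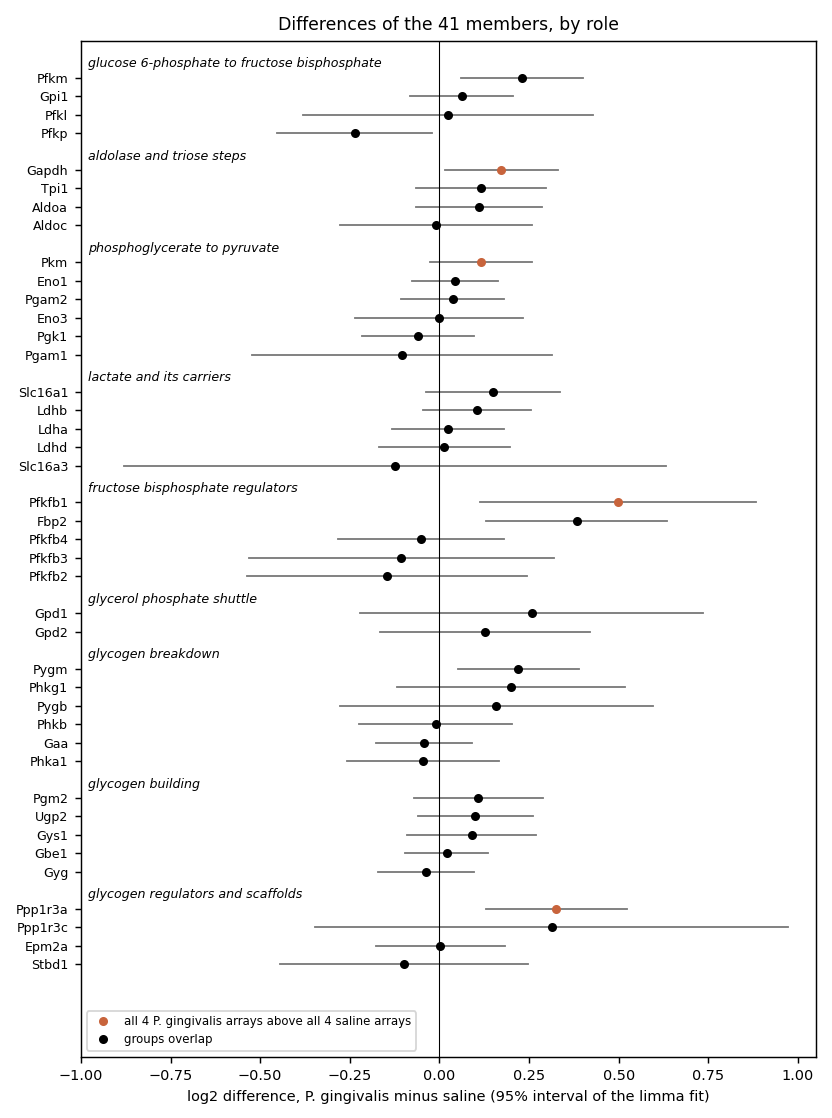
Log2 difference of each of the 41 members (x axis, P. gingivalis minus saline, with the 95% interval of the limma fit), grouped by role. Coloured points mark the 4 members whose groups do not overlap; intervals of 7 members exclude 0, and no member passed after adjustment over all genes.

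The first steps turn glucose 6-phosphate into fructose 1,6-bisphosphate. Pfkm, the muscle form of phosphofructokinase and the committed step of glycolysis, was measured by a probe at chr15:97962713-97962772 (mm9, plus strand). Its log2 signal was 7.54, 7.53, 7.71 and 7.69 on saline arrays 1 to 4 and 7.89, 7.88, 7.70 and 7.93 on P. gingivalis arrays 1 to 4. Only P. gingivalis array 3 lay within the saline range. The difference was 0.23 ± 0.07 (SE, n = 4 and 4), a fold of 1.17, with a limma adjusted p of 0.156. Under quantile normalization it was 0.11. Pfkp, the platelet form, measured -0.42, -0.35, -0.72 and -0.49 in saline and -0.81, -0.73, -0.58 and -0.80 in P. gingivalis. It had the lowest difference of the members, -0.24 ± 0.09 (adjusted p = 0.219). Saline array 3 lay among the P. gingivalis values, and the groups overlapped there. Pfkl, the liver form, gave -0.25, -0.01, 0.23 and 0.57 in saline and 0.03, 0.23, 0.36 and -0.0031 in P. gingivalis, a wide scatter that overlapped throughout (difference 0.02 ± 0.18). Gpi1, the isomerase that precedes phosphofructokinase, differed by 0.06 ± 0.06 on its brightest probe. Within each array, the log2 ratio of Pfkm to Pfkp averaged 8.11 ± 0.24 (SD) in saline and 8.58 ± 0.20 in P. gingivalis, a comparison that needs no array scaling. The ratio on P. gingivalis array 3, 8.29, lay below that on saline array 3, 8.42.

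Aldolase and the triose steps follow. Gapdh, which oxidises glyceraldehyde 3-phosphate and is often used as a reference gene, measured 8.72, 8.70, 8.72 and 8.77 on saline arrays 1 to 4 and 8.93, 9.05, 8.81 and 8.81 on P. gingivalis arrays 1 to 4. All P. gingivalis arrays lay above all saline arrays, and arrays 1 and 2 lay highest. The difference was 0.17 ± 0.07, with a limma adjusted p of 0.220 and an exact permutation p of 0.0286, the smallest that 70 assignments of 4 against 4 allow. It was 0.03 under quantile normalization and -0.0073 under the processing of the deposited table, which also changes the background correction, whereas 6 other Gapdh probes gave 0.15 to 0.34. Aldoa, the muscle aldolase, had 9.18, 9.29, 9.35 and 9.23 in saline and 9.47, 9.48, 9.23 and 9.31 in P. gingivalis. Its difference of 0.11 ± 0.08 lay within overlapping groups. That difference turned to -0.01 under quantile normalization and -0.06 under the processing of the deposited table. Tpi1, which interconverts the triose phosphates, gave 6.93, 6.96, 7.16 and 7.04 in saline and 7.06, 7.26, 7.03 and 7.21 in P. gingivalis. The groups were interleaved, with a difference of 0.12 ± 0.08. Aldoc, the brain form of aldolase, was dim and gave -2.82, -2.99, -2.68 and -2.87 on saline arrays 1 to 4 and -2.88, -2.55, -3.04 and -2.94 on P. gingivalis arrays 1 to 4, with a difference of -0.0096 ± 0.12. Still dimmer Aldoc probes gave 0.36 ± 0.27 and 0.44 ± 0.12. On the latter P. gingivalis lay wholly above saline (limma adjusted p over kept probes 0.112). It was well above background on 1 saline array and 4 P. gingivalis arrays.

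From phosphoglycerate to pyruvate, Pkm encodes pyruvate kinase, whose last step yields ATP and pyruvate. Pkm read 7.43, 7.42, 7.43 and 7.33 in saline and 7.57, 7.62, 7.43 and 7.46 in P. gingivalis. P. gingivalis arrays 1 and 2 were high, while array 3 of that group cleared the saline maximum by a margin smaller than the second decimal. The difference was 0.12 ± 0.06, with an adjusted p of 0.339 by limma, and it was 0.02 under quantile normalization and 0.03 with the mean of all Pkm probes. Its other probes gave 0.17 ± 0.08, 0.40 ± 0.11 and, on a dim signal, -0.56 ± 0.32. The phosphoglycerate mutases came next in the route. Pgam2, the muscle form, measured 8.09, 8.00, 8.15 and 8.09 in saline and 8.17, 8.20, 8.05 and 8.05 in P. gingivalis, with a difference of 0.04 that became -0.12 under quantile normalization. Pgam1, the form of most other tissues, gave 2.83, 2.65, 2.95 and 2.66 on saline arrays 1 to 4 and 2.76, 2.84, 2.96 and 2.12 on P. gingivalis arrays 1 to 4. P. gingivalis array 4 stood below every other array. The probe was printed on 10 spots of that array with an SD between spots of 0.06, and a second Pgam1 probe was also lowest there, at 0.92 against 1.53 to 1.87. The group difference was -0.11 ± 0.18.

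On the probe that stood for each gene, the enolases of adult muscle and of other tissues did not separate the groups. Eno3, the muscle enolase, read 7.86, 7.96, 8.05 and 7.88 in saline and 7.95, 8.14, 7.67 and 7.98 in P. gingivalis, a difference of -0.0022 ± 0.10. P. gingivalis array 3 was lowest and array 2 highest of all 8. Eno1, the ubiquitous form, had 4.70, 4.76, 4.66 and 4.64 in saline and 4.73, 4.78, 4.75 and 4.67 in P. gingivalis, with a difference of 0.04 ± 0.05. Pgk1, the first ATP-yielding step, differed by -0.06 ± 0.07.

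**Figure D2:**
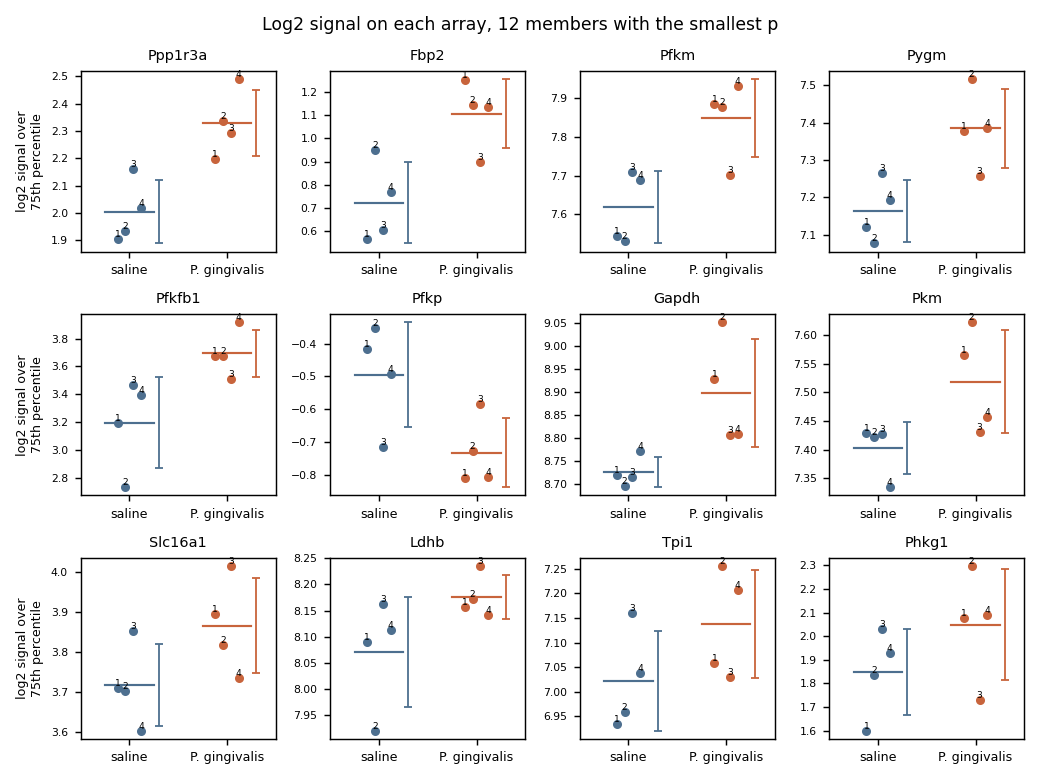
Log2 signal over the array's 75th percentile (y axis, scaled separately in each panel) for the 12 members with the smallest p, 4 arrays a group with array numbers. Horizontal lines are group means and side bars are ± 1 SD; in Ppp1r3a, Pfkfb1, Gapdh and Pkm the groups do not overlap.

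Lactate is made and used by the lactate dehydrogenases. Ldha, the subunit typical of fast muscle, measured 7.87, 7.90, 7.98 and 7.88 on saline arrays 1 to 4 and 7.89, 8.08, 7.83 and 7.93 on P. gingivalis arrays 1 to 4. Ldhb, the subunit typical of heart and slow muscle, measured 8.09, 7.92, 8.16 and 8.11 in saline and 8.16, 8.17, 8.24 and 8.14 in P. gingivalis. Both overlapped between groups, with differences of 0.02 ± 0.07 and 0.10 ± 0.07, and that of Ldhb became -0.06 under quantile normalization. The log2 ratio of Ldha to Ldhb averaged -0.16 ± 0.10 (SD) in saline and -0.24 ± 0.13 in P. gingivalis. Ldhd, which oxidises D-lactate in mitochondria, differed by 0.01 ± 0.08.

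The lactate carriers behaved unlike each other. Slc16a1 encodes MCT1, which imports lactate into oxidative fibres, and it read 3.71, 3.70, 3.85 and 3.60 in saline and 3.90, 3.82, 4.02 and 3.73 in P. gingivalis. P. gingivalis arrays 1 and 3 lay above the saline range and arrays 2 and 4 within it, with a difference of 0.15 ± 0.08 and a limma adjusted p of 0.350. Slc16a3 encodes MCT4, the exporter of glycolytic fibres, and it read 2.63, 3.74, 3.58 and 3.58 on saline arrays 1 to 4 and 3.41, 3.74, 2.48 and 3.40 on P. gingivalis arrays 1 to 4. Saline array 1 and P. gingivalis array 3 lay far below the other 6 arrays, so each group held a low array. The difference of -0.12 ± 0.33 therefore had the widest interval of the members, -0.88 to 0.63. Without P. gingivalis array 3 it was 0.14, and without saline array 1 it was -0.37.

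Fructose bisphosphate is set by a second layer of enzymes. Pfkfb1 encodes a bifunctional enzyme that makes and degrades fructose 2,6-bisphosphate, the activator of phosphofructokinase. Its probe lies at chrX:147078320-147078379 (mm9, plus strand) and measured 3.19, 2.73, 3.46 and 3.39 in saline and 3.67, 3.67, 3.51 and 3.92 in P. gingivalis. All 4 P. gingivalis arrays lay above the saline maximum, and saline array 2 was far the lowest. Pfkfb1 had the highest difference of the members, 0.50 ± 0.17, a fold of 1.41, with a limma adjusted p of 0.170. Without saline array 2 it was 0.34. A second Pfkfb1 probe differed by 0.66 ± 0.20. Fbp2, the muscle fructose bisphosphatase that runs the opposite reaction to phosphofructokinase on the way to glycogen, measured 0.57, 0.95, 0.61 and 0.77 in saline and 1.25, 1.14, 0.90 and 1.13 in P. gingivalis. Only P. gingivalis array 3 lay below the saline maximum. The difference of 0.38 ± 0.11 was a fold of 1.30 (adjusted p = 0.128, limma).

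On their brightest probes, the other fructose 2,6-bisphosphate enzymes gave negative differences with wide or overlapping groups. Pfkfb3, an inducible form with high kinase activity, read -0.42, -0.24, -0.18 and -0.20 on saline arrays 1 to 4 and -0.63, -0.44, -0.62 and 0.21 on P. gingivalis arrays 1 to 4. P. gingivalis array 4 was highest of all while the remainder of its group was below every saline array, for a difference of -0.11 ± 0.18. Pfkfb2, the heart form, differed by -0.15 ± 0.17, and Pfkfb4 by -0.05 ± 0.10. Other Pfkfb2 probes gave 0.05 ± 0.13 and, on a dim signal, 0.37 ± 0.21. The log2 ratio of Pfkfb1 to Pfkfb3 was 3.61, 2.97, 3.65 and 3.59 on saline arrays 1 to 4 and 4.30, 4.11, 4.13 and 3.70 on P. gingivalis arrays 1 to 4. Of the 11 ratios of related members computed within arrays, it was the only one whose groups did not overlap. Over all genes taken singly, 13.4% did not overlap, and no such share was computed for ratios. The gap was narrow, 3.65 on saline array 3 against 3.70 on P. gingivalis array 4, and Pfkfb1 by itself did not overlap either.

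The glycerol phosphate shuttle passes cytosolic reducing power to mitochondria. Gpd1, its cytosolic enzyme, measured 3.05, 3.25, 3.79 and 3.42 in saline and 3.67, 3.89, 3.15 and 3.84 in P. gingivalis. Gpd2, the mitochondrial partner, measured -0.20, 0.20, 0.08 and 0.15 in saline and 0.02, 0.35, -0.02 and 0.38 in P. gingivalis. In both genes the groups overlapped, with P. gingivalis array 3 and saline array 1 at or near the bottom, and the differences were 0.26 ± 0.21 and 0.13 ± 0.13.

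Glycogen breakdown starts with Pygm, the muscle phosphorylase whose loss causes McArdle disease. Its probe at chr19:6398389-6398448 (mm9, plus strand) gave 7.12, 7.08, 7.27 and 7.19 on saline arrays 1 to 4 and 7.38, 7.52, 7.26 and 7.38 on P. gingivalis arrays 1 to 4. P. gingivalis array 3 lay just below saline array 3, and the other 3 arrays of its group lay above all saline values. The difference was 0.22 ± 0.07, a fold of 1.16 (limma adjusted p = 0.166). Pygb, the brain form, read -1.20, -1.56, -1.0 and -1.47 in saline and -0.73, -1.55, -1.12 and -1.19 in P. gingivalis with no separation (difference 0.16 ± 0.19). Phosphorylase kinase switches phosphorylase on. Its catalytic muscle subunit Phkg1 had 1.60, 1.84, 2.03 and 1.93 in saline and 2.08, 2.30, 1.73 and 2.09 in P. gingivalis, a difference of 0.20 ± 0.14 in overlapping groups. On their brightest probes, the regulatory subunits Phka1 (-0.05 ± 0.09) and Phkb (-0.0098 ± 0.09) differed by less than their standard errors. A second, dim Phka1 probe gave 0.69 ± 0.19 with P. gingivalis wholly above saline (limma adjusted p over kept probes 0.110). Gaa, the lysosomal acid glucosidase deficient in Pompe disease, differed by -0.04 ± 0.06.

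On the brightest probes, no enzyme of glycogen building reached an unadjusted p under 0.05 in limma. Gys1, the muscle glycogen synthase, measured 6.13, 6.14, 6.27 and 6.00 on saline arrays 1 to 4 and 6.28, 6.30, 6.25 and 6.08 on P. gingivalis arrays 1 to 4, and its groups overlapped (difference 0.09 ± 0.08). Ugp2, which makes the UDP-glucose that synthase uses, differed by 0.10 ± 0.07. The gene the array calls Pgm2, a phosphoglucomutase, differed by 0.11 ± 0.08, and by its accession it is the gene named Pgm1 in the current table. Gyg, the glycogenin primer, differed by -0.04 ± 0.06 and Gbe1 by 0.02 ± 0.05. The log2 ratio of Gys1 to Pygm overlapped between groups, with means of -1.03 ± 0.11 (SD) in saline and -1.16 ± 0.13 in P. gingivalis.

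Proteins that hold enzymes on the glycogen particle included the member with the smallest p. Ppp1r3a encodes the striated muscle subunit that targets protein phosphatase 1 to glycogen, where the phosphatase activates synthase. Its probe at chr6:14664312-14664371 (mm9, minus strand) gave 1.90, 1.93, 2.16 and 2.02 in saline and 2.20, 2.34, 2.29 and 2.49 in P. gingivalis. Every P. gingivalis array was above every saline array, and the narrowest gap was between P. gingivalis array 1 and saline array 3. The difference was 0.33 ± 0.08 (95% interval 0.13 to 0.52), a fold of 1.25, with an exact permutation p of 0.0286 and a limma adjusted p of 0.111. By unadjusted p it ranked 1021 of all genes. Under normexp background correction it passed, at 0.35 with a limma adjusted p of 0.0414, as did 2.04% of all genes.

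Ppp1r3c, another glycogen targeting subunit, read 4.99, 4.93, 5.82 and 4.96 in saline and 5.90, 5.90, 5.16 and 4.99 in P. gingivalis. Saline array 3 and P. gingivalis arrays 1 and 2 were high, from 5.82 to 5.90, and the other 5 arrays lay from 4.93 to 5.16. The group difference of 0.31 ± 0.29 was smaller than this spread. Stbd1, which tethers glycogen to membranes, differed by -0.10 ± 0.15. Epm2a encodes laforin, the glycogen phosphatase lost in Lafora disease, and it differed by 0.0029 ± 0.08.

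The promoters of 3 members with small p-values are shown because these genes act on glycogen and its precursor. Each is the 250 bases before the start site in RefSeq (GRCm38.p6), read 5′ to 3′ on the gene's strand. They lie at chr6:14755275-14755524 (Ppp1r3a, minus strand), chr13:62858401-62858650 (Fbp2, minus strand) and chr19:6384158-6384407 (Pygm, plus strand). Capitals mark matches, on either strand, to ACGTG (the hypoxia core) and CAGCTG (a myogenic E-box).
Ppp1r3a: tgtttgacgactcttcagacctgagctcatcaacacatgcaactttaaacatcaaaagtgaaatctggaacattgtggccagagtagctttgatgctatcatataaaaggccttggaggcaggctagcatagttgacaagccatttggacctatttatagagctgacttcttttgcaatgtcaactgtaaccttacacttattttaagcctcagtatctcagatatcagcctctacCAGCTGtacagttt
Fbp2: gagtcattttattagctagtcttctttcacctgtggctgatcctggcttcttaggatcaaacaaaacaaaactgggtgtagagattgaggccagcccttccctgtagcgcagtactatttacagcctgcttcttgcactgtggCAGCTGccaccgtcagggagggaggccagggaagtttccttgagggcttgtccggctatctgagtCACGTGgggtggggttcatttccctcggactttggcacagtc
Pygm: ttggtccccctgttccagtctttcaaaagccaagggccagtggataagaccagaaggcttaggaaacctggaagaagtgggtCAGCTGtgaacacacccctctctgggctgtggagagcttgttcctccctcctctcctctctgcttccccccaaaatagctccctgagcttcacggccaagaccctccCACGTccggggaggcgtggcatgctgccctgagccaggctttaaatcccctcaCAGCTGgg
CAGCTG was found in all 3, and ACGTG in Fbp2 and Pygm. In Fbp2 the ACGTG match lies inside CACGTG, which reads as ACGTG on both strands.

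Of the 41 members, 40 matched the promoter table with 58 promoters (Gpd1 did not). ACGTG was found in 41.4% of those promoters and in 16.6% of all 32851 promoters of the same length. CACGTG, which always contains ACGTG, was in 15.5% against 6.02%, and CAGCTG was in 20.7% against 13.0%. Members' promoters had a median GC content of 58.8%, beside 52.4% over all promoters. Matches are descriptions of letters, and the array does not measure binding.

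The brightest probe of a gene stood for it, and 25 members had several kept probes. Among their 47 other probes, 20 reached an unadjusted p under 0.05 (42.6%), 16 higher and 4 lower, beside 23.5% of the 11478 such probes of all genes. These counts are of probes and not of separate members: Gapdh and Gpi1 each gave more than 1 of the 16, read on the same arrays. Among the 16 was a dim Aldoc probe, well above background on 1 saline array and 4 P. gingivalis arrays. Among the 4 lower was a Pgk1 probe on the strand opposite to that of the main Pgk1 probe. Both also enter the means of all kept probes. Of the members' other probes, 14 had the opposite sign to the brightest probe of their gene. In 15 of those 25 members (60%) the mean difference of the other probes exceeded that of the brightest, as it did for 59.2% of 7471 genes with several kept probes. The median over these members was 0.02 for the brightest probes and 0.15 for the others, beside -0.0043 and 0.04 over those genes. With the mean of all kept probes, 30 members were positive, beside 49.7% of all genes, and 11 had an unadjusted p under 0.05 (26.8%), beside 18.4%.

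A single member probe passed adjustment over the 33756 kept probes (0.163% of which passed), a Pfkl probe built from a cDNA clone at chr10:77470357-77470416 (mm9, minus strand). It read -2.25, -2.33, -2.31 and -2.23 on saline arrays 1 to 4 and -3.07, -2.75, -2.98 and -2.98 on P. gingivalis arrays 1 to 4. The groups were far apart, with a difference of -0.67 ± 0.08 (limma adjusted p = 0.0441), whereas the brightest Pfkl probe, from a RefSeq transcript, gave 0.02. The annotation of that position was not analysed here. The authors' deposited table lists the same probe with an adjusted p of 0.0357 and a log2 fold change of 0.51, positive because its columns are exchanged relative to the sample records. It was the only one of 64 member rows there under 0.05, beside 431 of all 28250 rows (1.53%).

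A probe across an exon junction has listed positions that span more than its 60 bases. There were 12 such member probes, 1 of them wider by a single base, and Fbp2 was the only member whose main probe was one. Those of Fbp2, Pygm, Pkm, Pygb, Gpi1 and Eno1 are shown because each had a positive difference at an unadjusted p under 0.05. The other kept probes of this kind did not reach that p in limma. They gave -0.95 (Epm2a, on 7 arrays), -0.09 (Pfkp), -0.07 (Phkb), 0.07 (Ldhb) and 0.07 (the Pygm probe wider by a single base). The sequences shown are read 5′ to 3′ as listed in the array files, and no base is capitalised because the files do not mark the junction.
Fbp2: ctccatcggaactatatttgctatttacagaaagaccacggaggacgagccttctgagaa
Pygm: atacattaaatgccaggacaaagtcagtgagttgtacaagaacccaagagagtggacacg
Pkm: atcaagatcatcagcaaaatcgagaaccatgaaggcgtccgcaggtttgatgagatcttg
Pygb: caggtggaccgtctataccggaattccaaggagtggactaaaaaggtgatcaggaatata
Gpi1: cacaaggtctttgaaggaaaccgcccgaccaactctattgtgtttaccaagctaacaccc
Eno1: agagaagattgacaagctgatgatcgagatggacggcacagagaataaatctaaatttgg
Their mm9 spans are chr13:62950852-62955367, chr19:6397893-6398064, chr9:59518501-59519397, chr2:150655410-150656136, chr7:34987856-34989053 and chr4:149618134-149618359.

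The Gpi1 junction probe measured 4.78, 4.94, 4.97 and 4.91 on saline arrays 1 to 4 and 5.15, 5.34, 5.10 and 5.22 on P. gingivalis arrays 1 to 4. The groups did not overlap, and the difference was 0.30 ± 0.07. Another Gpi1 probe gave 0.45 ± 0.07 (adjusted p = 0.0599, limma), while both bright probes gave 0.06 and 0.02. The Pkm junction probe gave 0.40 ± 0.11 and that of Pygm 0.34 ± 0.11. For Pygb the junction probe gave 0.67 ± 0.17, on a dim signal. The Eno1 junction probe gave 0.15 ± 0.06, another Eno1 probe -0.54 ± 0.12, and the brightest 0.04. P. gingivalis lay wholly above saline on the Eno1 junction probe and wholly below it on the other, while the brightest overlapped.

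**Figure D3:**
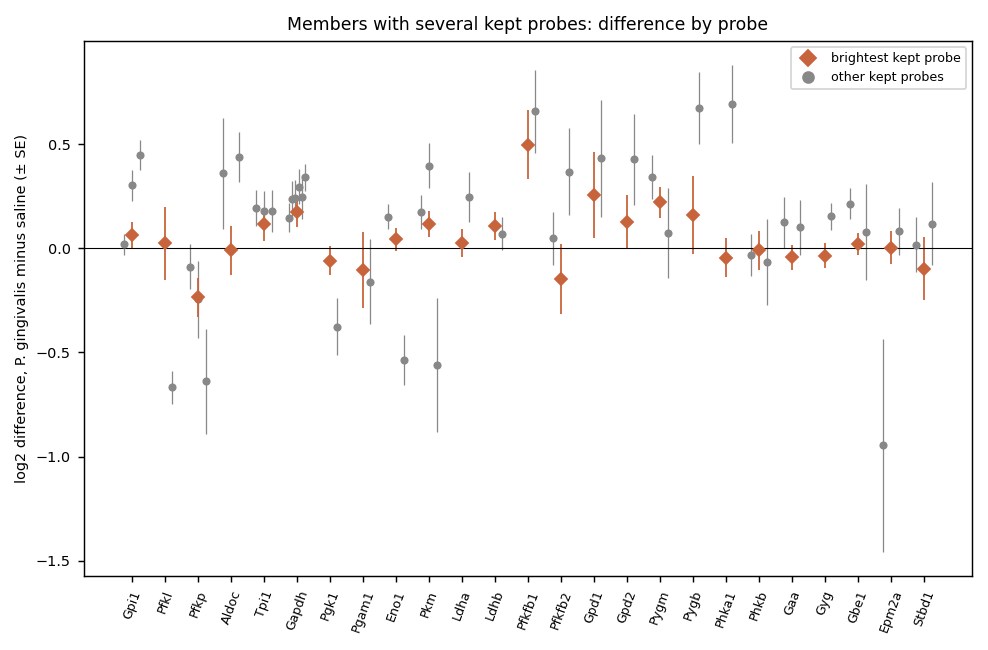
Log2 difference (y axis, P. gingivalis minus saline, ± SE) of each kept probe of the 25 members with several kept probes. Diamonds are the brightest probe, which stands for the gene; the other Gapdh probes lie from 0.15 to 0.34 and a Pfkl probe lies at -0.67.

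Both fibre type lists held genes higher in P. gingivalis, none past an adjusted p of 0.05 in limma. Of the 14 fast fibre markers, 5 had P. gingivalis wholly above saline (35.7%). Over all genes 13.4% did not overlap, 7.34% with P. gingivalis above. An unadjusted p under 0.05 in limma was reached by 5, all higher (35.7%), beside 19.7% of all genes, 10% higher. Atp2a1, the calcium pump of fast fibres, differed by 0.50 ± 0.07 (limma adjusted p = 0.0560). Of the 11 slow fibre markers, all measured, 9 were positive (81.8%, beside 47.7% of all genes) and 2 were negative, down to -0.30. On 6 of them P. gingivalis lay wholly above saline (54.5%), and 5 had an unadjusted p under 0.05, all higher (45.5%). Mb, the oxygen store myoglobin, differed by 0.32 ± 0.06 (limma adjusted p = 0.0649) and Myh7 by 0.09 ± 0.06, and the slow fibre mean deviation ran from -0.16 to 0.08 in saline and from 0.0037 to 0.08 in P. gingivalis. The part of either list in the members' differences between groups was not tested, other than by a fit that holds the fast fibre mean.

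The fast fibre mean overlapped between groups, and so did the slow fibre mean. The fast fibre markers with the widest saline spread were Myh4 (SD 2.72) and Actn3 (SD 1.61). The mean deviation of the 14 markers (14 of 14 measured) was -0.76, 0.20, 0.21 and -0.12 on saline arrays 1 to 4 and 0.21, 0.42, -0.34 and 0.19 on P. gingivalis arrays 1 to 4. Saline array 1 and P. gingivalis array 3 were the lowest, as they were for Slc16a3. The group difference of the marker mean was 0.24 (exact permutation p = 0.571), and 13 of the 14 markers were positive (92.9%, beside 47.7% of all genes). In a limma fit of each gene on this mean with the group as a second term, 0 of 41 members passed (4 of all genes did, 0.018%, with 3 slopes positive, 0.0135%, and 1 negative, 0.00449%). Slc16a3 had the smallest p of the members, with a slope of 1.26 ± 0.17 log2 units per unit of the mean (limma adjusted p = 0.315). Without saline array 1 and P. gingivalis array 3 that slope was 0.63.

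The slopes next in p were those of Phkg1 (0.47 ± 0.12), Pfkfb4 (0.33 ± 0.09), Gpd1 (0.66 ± 0.20), Phkb (0.29 ± 0.09), Gpd2 (0.38 ± 0.13) and Eno3 (0.30 ± 0.11). Without those arrays they were 0.31, 0.27, 0.39, 0.53, 0.17 and 0.49. Slopes were positive for 30 of 41 members, with a median of 0.12, beside -0.0080 over all genes. Ldhb, the slow muscle subunit, had -0.07 ± 0.10. With the marker mean in the fit, the group difference was 0.30 for Ppp1r3a, 0.32 for Fbp2, 0.20 for Pfkm and 0.49 for Pfkfb1, and it was -0.42 for Slc16a3.

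**Figure D4:**
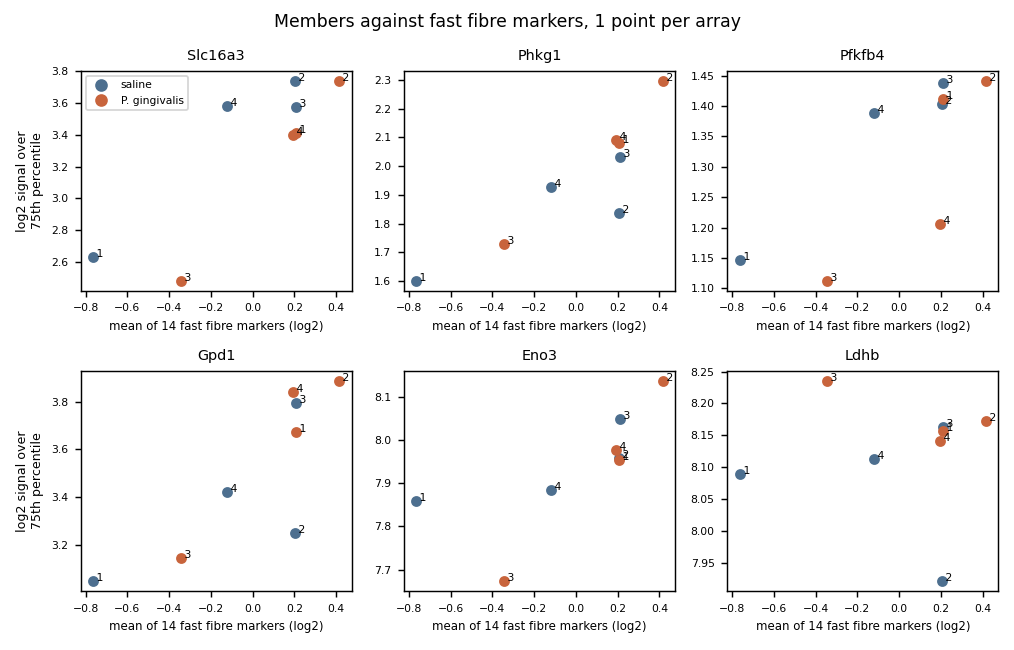
Log2 signal over the array's 75th percentile (y axis) against the mean deviation of 14 fast fibre markers (x axis, log2), 1 point per array with array number, for the 4 members with the smallest slope p and for Eno3 and Ldhb. Saline array 1 and P. gingivalis array 3, at -0.76 and -0.34, have the lowest Slc16a3 values, 2.63 and 2.48.

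Other marker lists also varied. Neutrophil markers (6 of 8 measured, Retnlg and Ngp not kept) deviated by -0.03 to 0.97 on the saline arrays and by -0.64 to -0.32 on the P. gingivalis arrays (difference -1.02, exact permutation p = 0.0286). Red blood cell markers (7 of 7) ran from -1.46 to 0.69 in saline and from -0.05 to 0.71 in P. gingivalis. Adipocyte markers (6 of 6) were high on saline array 1, at 0.85, and on P. gingivalis array 2, at 0.82, and differed by -0.11 between groups. Macrophage (9 of 9), endothelial (8 of 8) and fibroblast (5 of 5) markers differed by -0.26, -0.13 and -0.01. The part of these cell types in the members' differences was not tested. P. gingivalis array 2 was the highest array for 18 of 41 members and saline array 2 the lowest for 12. Without P. gingivalis array 2 the members' median was 0.03, with 24 positive.

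**Figure D5:**
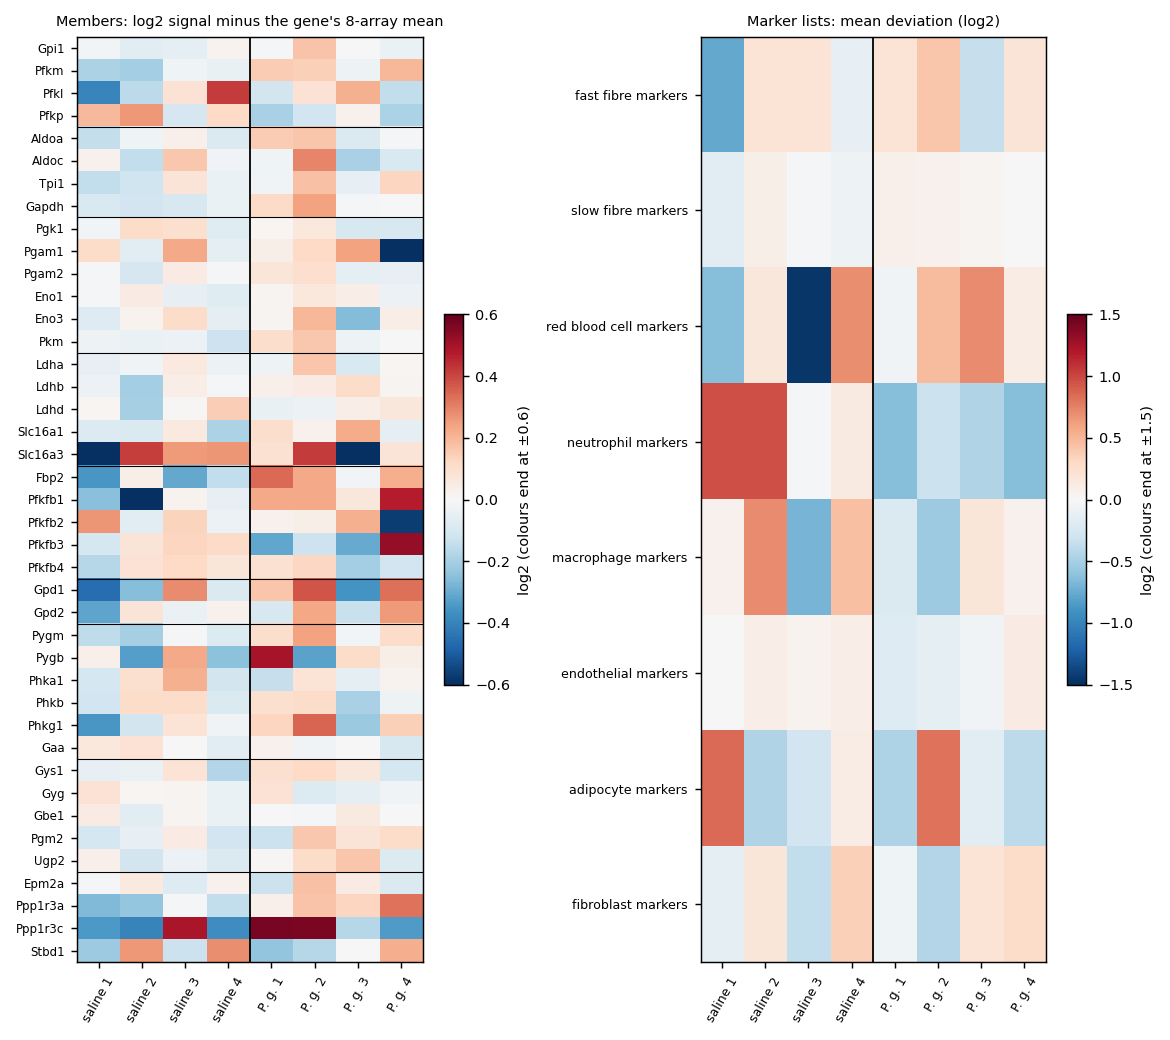
Left, log2 signal of each member minus its mean over 8 arrays, by array (columns) and role (horizontal lines); right, mean deviation of each marker list. Colours end at ±0.6 and ±1.5; Slc16a3 and the fast fibre markers are low on saline array 1 and P. gingivalis array 3.

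Neighbouring genes of the pathway were read from a list of 57, of which 48 were measured. Here too 0 passed an adjusted p of 0.05 in limma, while 6 higher and 3 lower reached an unadjusted p under 0.05 (18.8%, beside 19.7% of all genes). Their differences split evenly, 24 positive and 24 negative, with a median of 0.0024. The smallest p belonged to Ppp1r3b, a further subunit that targets protein phosphatase 1 to glycogen. It read 2.35, 2.23, 2.39 and 2.30 on saline arrays 1 to 4 and 2.73, 2.75, 2.71 and 2.57 on P. gingivalis arrays 1 to 4. The groups did not overlap, and the difference was 0.37 ± 0.06 (limma adjusted p = 0.0597).

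Bsg, or basigin, the chaperone that brings MCT1 and MCT4 to the membrane, read 4.09, 4.03, 4.21 and 4.11 in saline and 4.39, 4.47, 4.34 and 4.44 in P. gingivalis. Its groups did not overlap either (difference 0.30 ± 0.06, limma adjusted p = 0.0746), beside 0.15 for Slc16a1 and -0.12 for Slc16a3. Ppp1cb, a catalytic subunit of protein phosphatase 1, differed by 0.24 ± 0.07 (adjusted p = 0.126) and Ppp1r3f, another targeting subunit, by 0.24 ± 0.08 (adjusted p = 0.178). Bpgm, which makes 2,3-bisphosphoglycerate and is abundant in red cells, differed by 0.32 ± 0.07 (adjusted p = 0.0804), beside the red blood cell marker difference of 0.62. Pgk2, the testis phosphoglycerate kinase, was dim, with a difference of -0.49 ± 0.14 (adjusted p = 0.132).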

How the data were processed

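Total RNA of 8 soleus samples was measured on 1-colour Agilent arrays. The authors deposited spot intensity values made with Agilent Feature Extraction, version 11.0.1.1 per the file headers and 11.1 per the submitters' processing notes. The spot flags deposited with them include outlier and background calls. The members and gene lists were chosen with earlier results of these data known.

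Starting from the scanner's processed signal, which the file headers describe as background-subtracted, log2 values were taken and scaled by subtracting the 75th percentile within an array. Outlier-flagged and control spots were dropped before the spots of a probe were averaged. Probes well above background on at least 4 of 8 arrays were kept (33756 of 56605). The kept probe with the highest mean stood for its gene. A GRCm38.p6 table named 32994 probes through their RefSeq accession, 10224 through a current symbol and 520 through an older one, and 12867 kept the file's name. Probe positions are mm9 per the file headers. The comparison used limma 3.58.1 (R 4.3.3), two-sided, with Benjamini-Hochberg adjustment over 22278 genes, and the script was tested on simulated data. The authors' deposited table gives log2 values, log2 fold changes, a p-value and a score per probe, and it was used only where named. Values on every array are given for the 12 members with the smallest p and for members of the isoform ratios. The fit on fast fibre markers and the probe-by-probe view were added after seeing the data. Arrays correlated at 0.989 to 0.995 within groups and no pair was identical. Precision is limited by the number of arrays. Other settings tried were the scaling, background correction, dim probes, probe choice, variance model, array weights, the replicate number as a block, and arrays left out.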

Additional observations from a re-analysis of the deposited data

Results flagged for a closer look

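In 5 of 98 checks of the 4 arrays of a group, over members and marker lists, the highest or lowest array lay far from the other 3. Chance alone gives about 1 in 20. Slc16a3 (MCT4) was 2.63 on saline array 1, against 3.58 to 3.74 on the other saline arrays, and Pfkfb4 was 1.15 on the same array, against 1.39 to 1.44. That array also had the lowest fast fibre marker mean, -0.76, and the part of fibre content in these values was not tested. Ppp1r3c was 5.82 on saline array 3, against 4.93 to 4.99. Pkm was 7.33 on saline array 4, against 7.42 to 7.43. Gbe1 was 4.33 on P. gingivalis array 3, against 4.27 to 4.28, a gap of little size.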

How the results depend on the processing

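The count of all genes past an adjusted p of 0.05 was 26 and depended on the processing. It was 455 with normexp background correction (271 higher), 210 with quantile normalization (153 higher), 2385 with median centring, 264 when all 8 arrays had to be well above background, 5160 with no filter, 562 with a trended and robust variance, 199 with array weights, 337 with the processing of the deposited table, and 727 at an adjusted p under 0.10. It was 9 with the mean of all kept probes, 5 with the fast fibre mean as a covariate, 0 without saline 1 and P. gingivalis 3 together, and 2 to 7 with 1 array left out. The count of members past the threshold was 0 except for 1 with normexp and 6 with median centring. Members at an unadjusted p under 0.05 numbered 19 with median centring (46.3%, beside 32.6% of all genes), 11 with the mean of all kept probes, and 5 to 9 with 1 array left out. The members' median was 0.19 with median centring and 0.03 to 0.08 with 1 array left out. Gapdh, past the threshold with median centring (0.32), was -0.0073 with the processing of the deposited table. Same-numbered arrays had deviation correlations of -0.06 to 0.23, so the numbers were not taken as pairs. With the replicate block, 0 genes passed (limma), with 0 members past and 5 members at an unadjusted p under 0.05. The cause of these changes was not tested. With 4 arrays a group, a 95% interval reached at least 0.12 to either side of a member's difference.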
